A study of Xenopus tropicalis with 11 samples.

Results

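The regions described here held Foxh1 and the co-repressor Tle in frog blastulae of stage 8. No peak of Foxh1, Foxa or Smad2/3 was listed in them at any later stage profiled, which does not show that none was bound. These regions were chosen from 6 deposited peak lists. Peaks overlapping by at least 1 base were merged into 88697 regions, and a region was kept when it carried the stage 8 Foxh1 and Tle lists and none of the lists for Foxh1 at stage 9, Foxa at stage 10.25, and Foxh1 and Smad2/3 of a slightly later gastrula stage. There were 5478 such regions, which is 6.18% of all regions and 19.4% of the 28275 regions with stage 8 Foxh1. They are called Foxh1-Tle early regions in what follows. The presence and absence of peaks chose them, so these counts, and the peak strengths of the stage 8 lists, are descriptions and were not tested.

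The samples were whole embryos of the Nigerian strain of Xenopus tropicalis, and the labels name no genotype or treatment. ChIP-seq recovers DNA fragments bound by a protein with an antibody, here a custom antibody against Foxh1 and a commercial one against Tle. The stage 8 Foxh1 list rests on 2 pooled replicates, and the Tle list on 1 library made with another kit, which has an input sample of its own. Each list stands alone, so no spread between embryos can be given. Whole embryos hold cells of all germ layers, so a weak peak in every cell and a strong peak in some cells cannot be told apart. The depth of the libraries is unknown.

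Foxh1 is a forkhead transcription factor deposited in the egg, and it brings Smad2/3 to genes that answer Nodal signals in the mesoderm and endoderm. Tle proteins, of the Groucho family, do not bind DNA on their own and are recruited as co-repressors by DNA-binding factors. The blastula of stage 8 lies around the start of zygotic transcription, before gastrulation. Foxa factors are forkhead proteins of the endoderm and organizer.

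Tle occupied many Foxh1 regions whether or not Foxh1 was found there later. Of all stage 8 Foxh1 regions, 58.0% carried a Tle peak. Among the 10790 regions with a listed Foxh1 peak at stage 8 and at no later stage, 5671 carried Tle (52.6%, Wilson 95% interval 51.6 to 53.5%). Foxh1 regions that also had Foxh1 later carried it in 61.3% (60.6 to 62.1%). These intervals cover the counting error of regions alone. The shares were not compared at equal Foxh1 score, the score each Foxh1 peak has in its list. Of stage 8 Foxh1 regions in no later list, 2131 carried Tle and 3244 did not in the lowest of 3 classes by that score. In the highest class, 1085 carried Tle and 237 did not. Among them the Tle share was thus larger at high Foxh1 score. What part Foxh1 score has in the difference between 52.6 and 61.3% was not tested. Of the 5671 regions, 193 were left out because a Foxa peak lay in them, 1 of which also had Smad2/3, and the Foxh1-Tle early regions are the other 5478. They contained 5543 Foxh1 peaks, 19.4% of the stage 8 list, and 5513 Tle peaks, 14.5% of the Tle list.

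Few listed peaks lay at the edge of the overlap rule, and unlisted peaks could not be counted here. Of the early regions, 44 lay within 100 bases of a peak of one of the barred lists, and 4 within 10 bases. The closest gap was 0 bases. On the other side, 7006 regions held stage 8 Foxh1, Tle and exactly 1 barred peak, and in 22 of them that peak overlapped a stage 8 peak by at most 100 bases. The smallest such overlap was 3 bases.

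Most early regions were simple. A single Foxh1 peak and a single Tle peak made up 5383 of them (98.3%), while 62 had several Foxh1 peaks and 35 several Tle peaks. Single Foxh1 peaks were usual in the whole stage 8 list too, whose 28611 peaks fell in 28275 regions. The median region was 384 bases wide, with a range from 190 to 2138 bases. The Foxh1 peak had a median width of 333 bases and the Tle peak of 305 bases. Regions of stage 8 Foxh1 with no other list, 5008 in number, had narrower Foxh1 peaks with a median of 237 bases. At regions with Foxh1 at stages 8 and 9 and Tle but no gastrula factor, 6963 in number, the median Foxh1 width was 375 bases. A wider peak also has more room to overlap a Tle peak, so width is not independent of the rule.

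Foxh1 was of middling strength at the early regions. Fold enrichment, the authors' ratio of signal over local background, ran from 3.88 to 41.2 with a median of 15.6, and the middle 50% lay between 13.1 and 19.3. The median over all stage 8 Foxh1 peaks was 16.6. Stage 8 Foxh1 regions with no other list had a median of 13.9, and those with Foxh1 at stages 8 and 9 and Tle had 21.5. By score, which is set by the authors' −log10 p, the median early region stood at percentile 41.9 of the Foxh1 list, against 23.9 and 74.9 for the other two kinds of region. The early regions thus fell between them.

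Tle was comparatively strong at the same places. The Tle score had a median of 10.49, with the middle 50% from 7.13 to 18.0, against 7.29 for the whole Tle list and 5.78 for the 18758 regions with Tle and no other list. The median early region stood at percentile 67.1 of the Tle list. A Tle peak of 190 bases, the smallest width in that list, was found in 634 of the early regions (11.6%), whereas 26.5% of all Tle peaks had that width. At regions with Foxh1 at stages 8 and 9 and Tle the share was lower still, at 8.49%. A wider Tle peak has more room to overlap a Foxh1 peak, so this width is not independent of the rule either. Regions with Foxh1 at stages 8 and 9 and Tle had a higher median Tle score of 13.9.

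The medians drew closer when regions of the same class of Foxh1 score were set side by side. The stage 8 Foxh1 list was cut into 3 classes of equal size by score. In the lowest class the median Tle score was 8.86 at the early regions and 8.61 at those that kept Foxh1 at stage 9. It was 10.7 and 10.4 in the middle class, and 16.8 and 17.8 in the highest. The middle 50% of Tle scores overlapped widely in each class, as in the highest class with 10.2 to 29.0 and 10.2 to 35.0. The classes differed in size, since 38.9, 41.3 and 19.8% of the early regions were in the lowest, middle and highest, against 11.6, 26.5 and 62.0% of the regions that kept Foxh1. Foxh1 strength was not fully matched in the highest class, where the median fold was 23.7 at the early regions and 26.1 at those that kept Foxh1. In the middle class these folds were 16.9 and 17.1, and in the lowest 12.9 and 12.9.

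Across the Foxh1 score the share of early regions rose a little and then fell. All stage 8 Foxh1 regions were ranked by score and cut into 10 classes of about equal size. Early regions made up 21.3% of the lowest class, 25.4% of class 4, 22.0% of class 7 and 3.36% of the highest. Stage 8 Foxh1 regions with no other list declined from 40.4% to 0.106% over the same range. Across the Tle score the early regions were rare at the bottom, with 4.73% of the lowest class, reached 25.2% in class 9 and made up 17.4% of the highest. Regions with Foxh1 at stages 8 and 9 and Tle were about as rare at the bottom, with 4.23%. They made up 34.9% of class 9 and 45.7% of the highest.

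**Figure D1:**
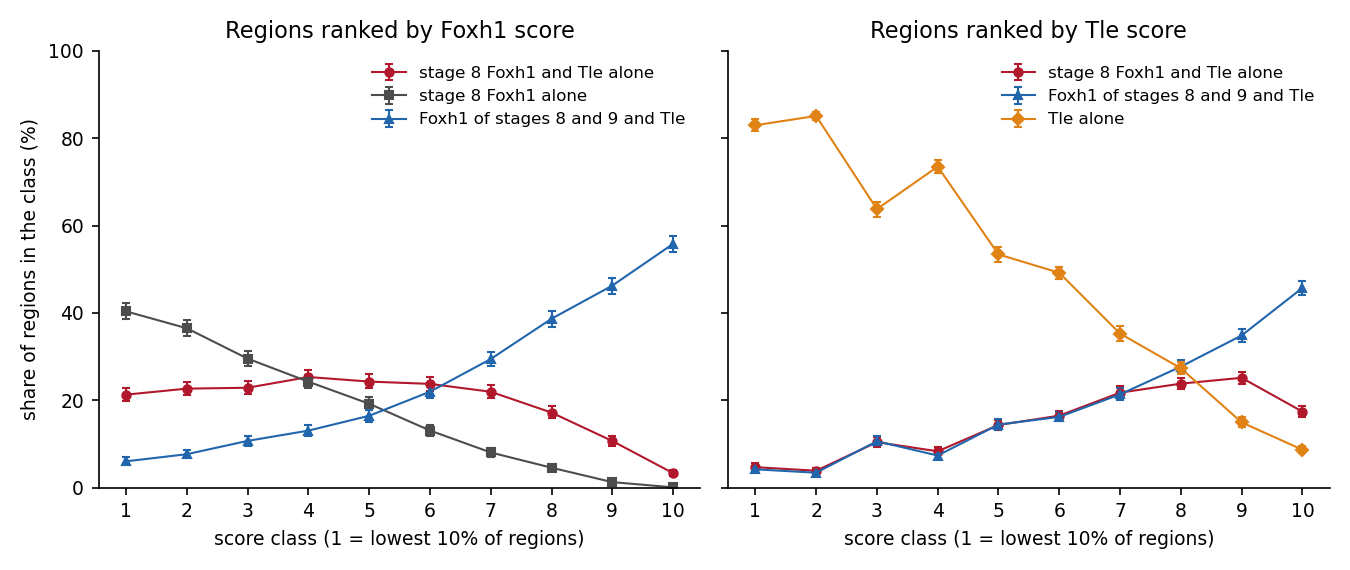
Share of regions of each kind (y axis, percent) in 10 classes of all regions with stage 8 Foxh1 ranked by Foxh1 score (left) and of all regions with Tle ranked by Tle score (right). Tied scores were kept together, and bars are Wilson 95% intervals. The Foxh1-Tle early regions (red) stay between 21.3 and 25.4% over the lower 7 classes by Foxh1 score and end at 3.36%, while by Tle score they peak at 25.2% in class 9.

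Foxh1 and Tle strength were only loosely related within the early regions. Spearman's rho between their scores was 0.309 over 5478 regions, and 0.441 over the 6963 regions that kept Foxh1 at stage 9. Both are descriptions across regions of 1 list pair, and any part that peak width or local background has in them was not tested. Among the early regions, 433 were in the upper 25% of both lists and 187 in the lower 25% of both. A further 388 had a Tle peak of the upper 25% with a Foxh1 peak of the lower 25%, and 13 the reverse. The early regions stood lower in the Foxh1 list than in the Tle list, with median percentiles of 41.9 and 67.1. Equal counts of these 2 kinds were thus not to be looked for, and the counts do not measure the relation.

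The 548 early regions of lowest Tle score had a median Foxh1 fold of 14.4, and the 554 of highest Tle score one of 19.0. The 55 highest, all with a Tle score of 108 or more, had a median fold of 19.1. By percentile of Foxh1 score the medians were 31.0, 63.9 and 53.2 in the same order, so for the 55 highest the percentile was lower and the fold about the same as for the 554 that include them.

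Of the 5 early regions of highest Tle score, the first lay on scaffold 7 from 98696036 to 98697321, where the Tle peak filled the whole 1286 bases with a score of 548. The Foxh1 peak there was 393 bases wide with a fold of 14.2, at percentile 16.1 of its list, and its summit was 390 bases from the middle of the Tle peak. The next, on scaffold 4 from 111558332 to 111559043, had a Tle score of 354 and a Foxh1 fold of 15.5, with the summit 1 base from the Tle middle. On scaffold 2 from 18771079 to 18771767 the Tle score was 311 and the Foxh1 fold 15.8. The other two, at 74790012 to 74790722 of scaffold 7 and at 15339819 to 15340594 of scaffold 5, had Tle scores of 238 and 233 and Foxh1 folds of 16.2 and 14.4. The Foxh1 peaks of all 5 were between percentiles 16.1 and 37.7 of their list, below the median of 41.9 of the early regions, while their folds lay close to the median fold of 15.6.

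The 5 early regions of highest Foxh1 fold were other places. On scaffold 3 from 89007287 to 89008099 the Foxh1 fold was 41.2 and the Tle score 31.0, and a Foxa peak lay 0.835 kb away. The region on scaffold 3 from 95415642 to 95416272 had a fold of 39.9 and a Tle score of 73.4, with a stage 9 Foxh1 peak at 1.45 kb. On scaffold 5 from 13515630 to 13516327 the fold was 38.9 and the Tle score 21.9, and the Foxh1 summit coincided with the Tle middle. The region on scaffold 1 from 137926970 to 137927571 had a fold of 38.4 and a Tle score of 37.1. The last, on scaffold 2 from 36886309 to 36886712, had a fold of 38.2 but a Tle score of 8.86, and a stage 9 Foxh1 peak lay 1.01 kb away. Of these 5, 4 had a Tle peak above percentile 86.5 of its list and the last was at 59.7. By Foxh1 score all 5 were above percentile 95.3 of their list.

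At the other end, the lowest Foxh1 fold of 3.88 belonged to a region at the very start of scaffold 496, from base 1 to 1005, with a Tle score of 30.9. Next came a fold of 6.64 with a Tle score of 57.9, on scaffold 192 from 143506 to 144020. The fold was 7.01 and the Tle score 28.3 on scaffold 4 from 64210474 to 64210949. All 3 had Tle peaks above percentile 90 of the Tle list. By Foxh1 score they stood at percentiles 21.2, 33.3 and 5.80 of the Foxh1 list in the same order. A low fold was thus not always a low score. The lowest Tle score, 3.02, was shared by 20 early regions. Of the 3 named here, the region at 30242940 to 30243154 of scaffold 9 had a Foxh1 fold of 20.0. The folds were 17.5 at 30829470 to 30829773 of scaffold 10 and 16.0 at 35804376 to 35804781 of scaffold 4. These 3 folds lay above the median of 14.4 of the 548 early regions of lowest Tle score, so they do not stand for that set.

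The peaks of both proteins sat on top of each other. The distance from the Foxh1 summit to the middle of the Tle peak had a median of 42 bases, with the middle 50% from 19 to 81 bases and a maximum of 882. The summit lay within the Tle peak in 96.1% of the early regions, and the Tle middle lay within the Foxh1 peak in 95.2%. In the median region the shared stretch was 259 bases, or 83.1% of the Foxh1 peak and 92.3% of the Tle peak. The Foxh1 peak was the wider one in 60.9%. Where Foxh1 was found again at stage 9, the median distance was 41 bases and 81.5% (80.6 to 82.4%) of regions had the summit within 100 bases of the Tle middle, against 82.2% (81.2 to 83.2%) of the early regions. These intervals overlap. The Tle list gives no summit, so a summit is set against a middle here, and the overlap that the rule requires limits the distance.

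**Figure D2:**
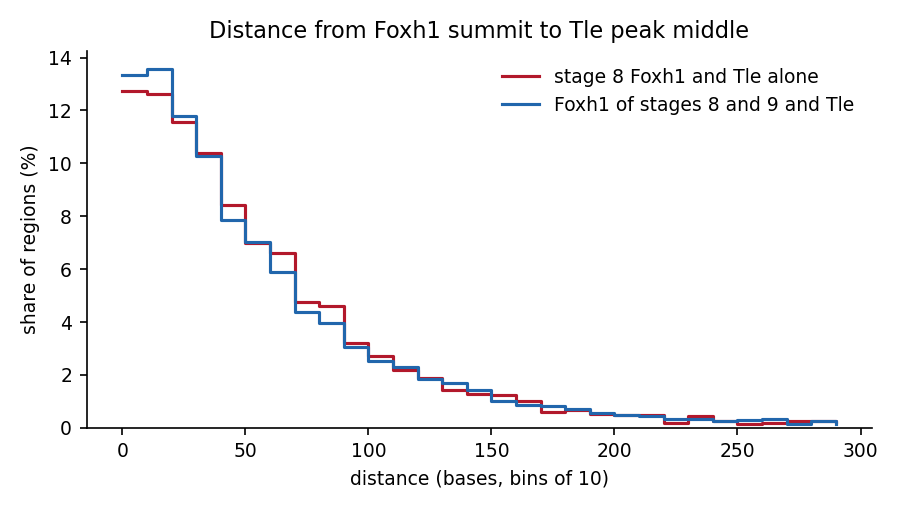
Share of regions (y axis, percent) by distance in bases from the stage 8 Foxh1 summit to the middle of the Tle peak, in bins of 10 bases up to 300, for the Foxh1-Tle early regions (red) and regions with Foxh1 at stages 8 and 9 and Tle (blue). Both curves fall from the first bins, with medians of 42 and 41 bases.

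The surroundings of the early regions were then described, since the rule uses only what lies in a region and not what lies beside it. Early regions were often close to Foxh1 that was found at stage 9. A listed stage 9 Foxh1 peak lay within 10 kb of 2552 of them (46.6%, 45.3 to 47.9%), against 38.5% (37.2 to 39.9%) of stage 8 Foxh1 regions with no other list and 37.1% (36.4 to 37.8%) of regions with Tle alone. Within 1 kb the shares were 12.7, 7.87 and 8.31%. In the 3 classes of Foxh1 score the 10 kb share was 44.3, 48.9 and 46.2% for early regions from lowest to highest, and 39.1, 37.4 and 38.4% for those with no other list. The intervals of both kinds overlapped only in the highest class, with 43.2 to 49.1% and 32.4 to 44.7%, where the second rests on 237 regions. For all shares by distance, here and below, regions near the same neighbour were each counted. The Wilson intervals make no allowance for this, and whether they overlap is not a test of a difference.

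The neighbours that were found at stage 9 were mostly places with Foxh1 at both stages. For 738 early regions the nearest region with stage 9 Foxh1 began within 1 kb of the region's edge. For 641 of these 738 (86.9%, 84.2 to 89.1%) the neighbour also carried stage 8 Foxh1, and for 538 (72.9%, 69.6 to 76.0%) both stage 8 Foxh1 and Tle. A neighbour nearest to several early regions was counted once for each of them, and the intervals make no allowance for such repeats. Over all 29679 regions with stage 9 Foxh1, each counted once, these shares were 58.9 and 36.1%. Such a neighbour was found for 413 stage 8 Foxh1 regions with no other list, counted in the same way. It carried stage 8 Foxh1 for 81.1% (77.1 to 84.6%) of them and stage 8 Foxh1 and Tle for 59.1% (54.3 to 63.7%). An early region could therefore lie beside a Foxh1 place of the same stage that was found again.

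Early regions also lay near each other. Another early region lay within 10 kb of 1470 of them (26.8%, 25.7 to 28.0%). An early region was that close to 15.1% (14.1 to 16.1%) of stage 8 Foxh1 regions with no other list and 21.4% (20.4 to 22.4%) of those with Foxh1 at stages 8 and 9 and Tle. The share rose with the Foxh1 score of the early region, from 23.5% in the lowest class to 27.7% and 31.6%. It also rose at regions with Foxh1 at stages 8 and 9 and Tle, with 14.9, 16.7 and 24.6%. At stage 8 Foxh1 regions with no other list the values were 14.7, 15.3 and 18.6%. Linked by gaps of at most 10 kb, these 1470 regions formed 657 groups, of which 545 were pairs and 8 held 5 or more. Regions of stage 8 Foxh1 with no other list formed 314 groups from 650 regions, and the largest held 4. Groups of regions with Foxh1 at stages 8 and 9 and Tle were not counted, so grouping is not shown to be particular to the early regions.

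Tle without a listed Foxh1 peak was common around them as well. A region with Tle and no other list lay within 10 kb of 45.6% (44.3 to 46.9%) of the early regions, against 28.5% (27.2 to 29.7%) of stage 8 Foxh1 regions with no other list. At regions that kept Foxh1 at stage 9 the share was 39.2% (38.1 to 40.3%), and at regions with Tle alone 36.9% (36.2 to 37.5%). At 1 to 2 kb there were 55.0 such Tle regions per region and Mb around the early regions, where the mean over all scaffolds was 13.7. Other regions with Tle were also above that mean, with 43.2 around those that kept Foxh1 at stage 9 and 42.6 around Tle alone.

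Foxa was about as close to the early regions as to other Foxh1 regions of stage 8 alone. A Foxa peak lay within 10 kb of 38.4% (37.2 to 39.7%) of the early regions and of 38.4% (37.0 to 39.7%) of stage 8 Foxh1 regions with no other list. Regions with Foxh1 at stages 8 and 9 and Tle had one within 10 kb in 45.0% (43.8 to 46.2%). Gastrula Foxh1 was within 10 kb of 112 early regions (2.04%, 1.70 to 2.45%) and Smad2/3 of 40 (0.730%, 0.537 to 0.993%). The corresponding shares of regions that kept Foxh1 at stage 9 were 3.48% (3.07 to 3.93%) and 0.948% (0.746 to 1.20%), and the Smad2/3 intervals overlap. Stage 8 Foxh1 regions with no other list had 1.58% (1.27 to 1.96%) and 0.499% (0.338 to 0.736%). Regions with Tle and no other list had 1.99% (1.80 to 2.20%) and 0.554% (0.458 to 0.671%). The intervals of these 2 kinds overlap those of the early regions. The gastrula lists are short, with 1290 and 480 peaks, so a missing neighbour does not show that none was bound.

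**Figure D3:**
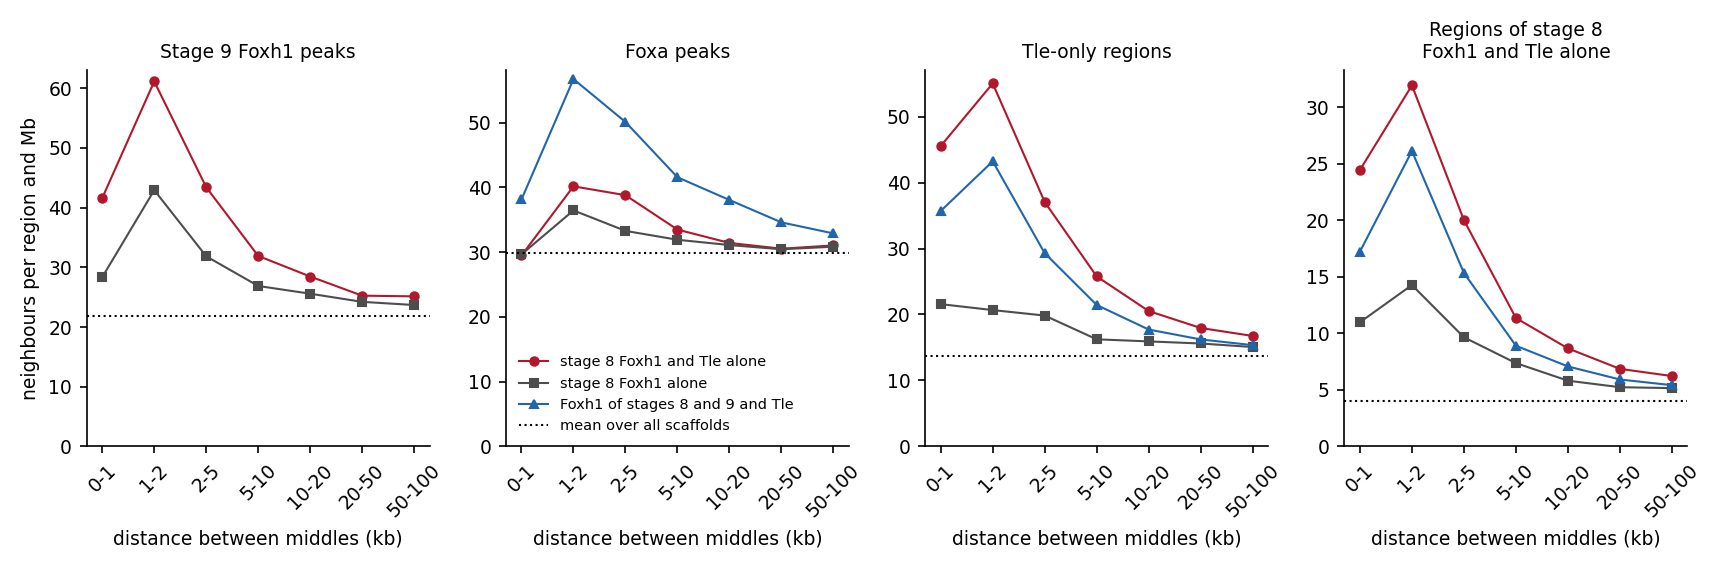
Number of neighbours per region and Mb (y axis) by distance between middles in kb, for stage 9 Foxh1 peaks, Foxa peaks, Tle-only regions and the Foxh1-Tle early regions themselves, around early regions (red), stage 8 Foxh1 regions with no other list (grey) and regions with Foxh1 at stages 8 and 9 and Tle (blue, not shown for stage 9 Foxh1, which they carry). The first bin is partly emptied by the rule, since overlapping peaks are barred; at 1 to 2 kb early regions have 61.2 stage 9 Foxh1 peaks per region and Mb and 40.2 Foxa peaks, against means over all scaffolds of 21.9 and 29.9 (dotted lines).

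The densest places can be named. The largest groups held 7 early regions each. One ran on scaffold 2 from 79686740 to 79705865, with Foxh1 folds from 11.9 to 22.1 and Tle scores from 6.12 to 19.8. In its 19.1 kb there were 8 stage 8 Foxh1 peaks, 10 Tle peaks and 1 stage 9 Foxh1 peak, with no Foxa. On scaffold 1 from 84163553 to 84183580 the folds ran from 10.6 to 29.2 and the Tle scores from 4.35 to 42.4, again with 1 stage 9 Foxh1 peak and no Foxa. A group on scaffold 3 from 90866873 to 90883849 had folds from 12.3 to 28.0, 13 Tle peaks, 2 stage 9 Foxh1 peaks and no Foxa. By contrast, the group on scaffold 6 from 103496706 to 103532111 was mixed, with 16 stage 8 Foxh1 peaks, 21 Tle peaks, 9 stage 9 Foxh1 peaks and 5 Foxa peaks. None of these 4 groups had gastrula Foxh1 or Smad2/3.

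The 200 kb window with the most early regions lay on scaffold 4 from 91891498 to 92091497 and held 12 of them. Their Foxh1 folds ran from 12.0 to 23.8 and their Tle scores from 5.67 to 60.5. The window had 19 stage 8 Foxh1 peaks and 26 Tle peaks, against 6 stage 9 Foxh1 peaks, 4 Foxa peaks and no gastrula Foxh1 or Smad2/3.

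Over the genome, early regions were found on 149 scaffolds at a mean of 4.00 per Mb, and 95.5% of them were on the scaffolds numbered 1 to 10. Scaffold 3 had the highest density of these 10, with 610 regions or 5.21 per Mb. Scaffolds 9 and 10 had the lowest, with 2.55 and 1.80 per Mb. All stage 8 Foxh1 regions were sparse there too, at 16.1 and 13.6 per Mb against 25.1 on scaffold 3. Early regions were 15.8% (14.1 to 17.7%) of the stage 8 Foxh1 regions of scaffold 9 and 13.2% (10.6 to 16.4%) of those of scaffold 10, and between 18.9 and 22.0% on the other 8. Among regions with Foxh1 at stage 8 only, their share ran from 44.7% (40.6 to 48.8%) on scaffold 9 to 54.9% (51.5 to 58.2%) on scaffold 7, and on scaffold 10 it was 49.3% (41.1 to 57.5%). Peak strength varied little, with median folds from 15.2 to 16.3 and median Tle scores from 10.2 to 12.2 over the 10 scaffolds.

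**Figure D4:**
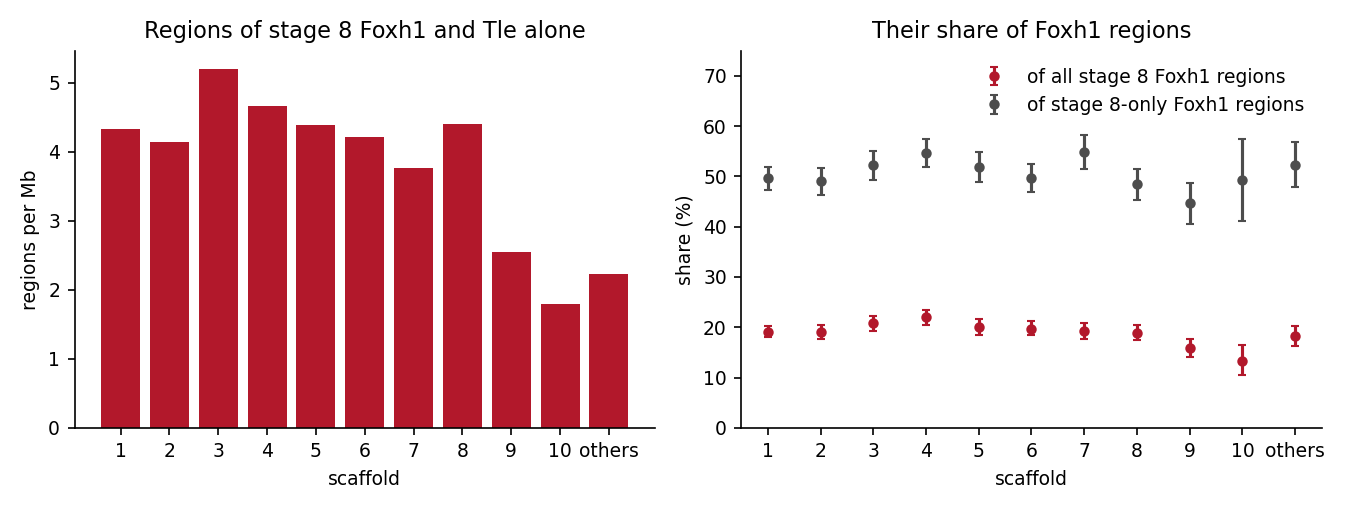
Foxh1-Tle early regions per Mb of scaffold (left, bars from 0) and their share of all stage 8 Foxh1 regions and of those with Foxh1 at stage 8 only (right, percent, with Wilson 95% intervals), for scaffolds 1 to 10 and all others together. Among scaffolds 1 to 10, density is lowest on 9 and 10, at 2.55 and 1.80 per Mb. All others together have 2.22 per Mb. The share of stage 8-only regions lies between 44.7 and 54.9% on scaffolds 1 to 10.

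Absence from the stage 9 list was finally checked against the numbers in the peak names. In each Foxh1 list these numbers rise with position along every scaffold, and the stage 9 list holds 29935 of 97775 numbers (30.6%). The gastrula lists hold smaller shares, with 1290 of 28001 numbers (4.61%) for Foxh1 and 480 of 6247 (7.68%) for Smad2/3. The stage 8 Foxh1 list holds 28611 of 128020 (22.3%), so Tle alone means only that no Foxh1 peak was listed. The missing numbers were taken to stand for peaks that are not in the deposited list, which the labels do not state. Where a region lies between a pair of neighbouring stage 9 peaks of successive numbers, there is no room for such a peak. This was the case for 95 of the 5365 early regions that lie between listed stage 9 peaks (1.77%, 1.45 to 2.16%). Regions between the same pair of peaks share 1 outcome and were each counted, and the Wilson intervals make no allowance for such repeats. The share was low for other kinds as well, at 1.63% of stage 8 Foxh1 regions with no other list, 5.88% of Tle alone and 6.28% of Foxa alone. Of all bases between listed stage 9 peaks it was 6.91%. For the other 5270 early regions the numbers leave room for an unlisted stage 9 peak, although it may lie anywhere in the interval. The median interval around early regions was 78.5 kb long with 5 missing numbers. For most early regions the deposited files therefore do not show that Foxh1 was absent at stage 9.

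In short intervals the numbers say more. Where the flanking stage 9 peaks were at most 20 kb apart, 53 of 865 early regions (6.13%, 4.71 to 7.93%) had no missing number beside them. Here too, regions between the same pair of peaks were each counted, so the Wilson intervals are too narrow where regions lie close together. The share was 24.6% (22.8 to 26.5%) for regions with Tle alone and 19.3% (18.3 to 20.4%) for those with Foxa alone, while 36.7% of all bases in such intervals had none. Stage 8 Foxh1 regions with no other list had 7.06% (5.19 to 9.55%), which overlaps the value of the early regions. In intervals of at most 5 kb the share was 9.42% (6.24 to 14.0%) for early regions and 34.1% (29.8 to 38.6%) for Tle alone, with 56.7% of the bases. By Foxh1 score class it was 9.55, 4.88 and 2.75% from lowest to highest in intervals of up to 20 kb, and the last rests on 5 of 182 regions. Intervals around early regions thus lacked a missing stage 9 number less often than those around regions with no listed Foxh1 peak. No test was made of this difference.

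**Figure D5:**
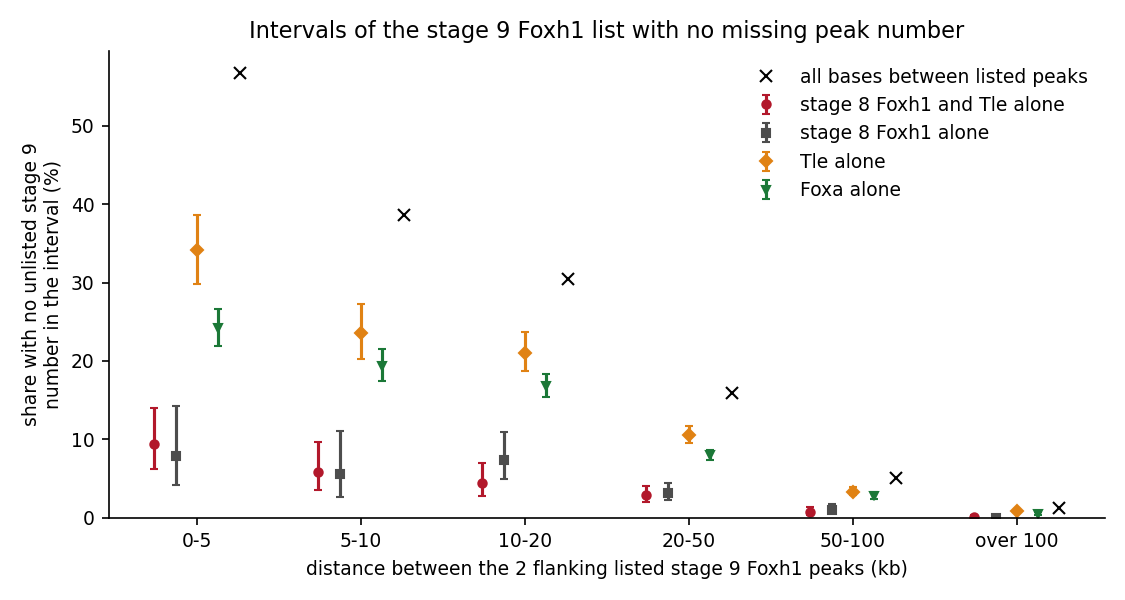
Share of regions (y axis, percent, with Wilson 95% intervals) that lie between listed stage 9 Foxh1 peaks with no missing number, by the distance between those peaks in kb. Crosses give the share of all bases. Regions between the same pair of peaks are each counted, for which the Wilson intervals make no allowance. In intervals of at most 5 kb the values are 9.42% for the Foxh1-Tle early regions, 34.1% for Tle alone and 56.7% of all bases.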

How the data were processed

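The 6 peak lists were used as the authors deposited them. The submitters' processing notes name MACS2 2.0.10, HOMER 4.7, Bowtie 1.0.0 and SAMtools without saying what each did. No source used here gives the genome build, the controls or the thresholds of peak calling. The deposited Foxh1 and Smad2/3 lists give a score, a fold (the authors' ratio over background), a −log10 p and a summit per peak. The deposited Tle and Foxa lists give a score only, of unstated kind. Scores and folds served to describe and rank peaks within 1 list.

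Regions, distances (between edges unless stated) and Wilson 95% intervals were computed with scipy 1.17.1, pandas 2.3.3 and numpy 2.4.6 (Python 3.11.15), figures with matplotlib 3.10.9, and the code was tested on simulated lists. A region takes the values of its highest-scoring peak of each list. The percentile of a peak is its rank by score in its list. The extent of a scaffold is its furthest peak end, 1370 Mb in all. Coordinates are those of the lists, counted from 1. No test was run, because regions of 1 list are not replicates. The regions named are the 5 highest by Foxh1 fold and by Tle score, the 3 lowest of each, and the window with most early regions. For the lowest Tle score, 3 of 20 tied regions were named. The largest groups were added after their values were seen. The rule, the kinds of region compared and the lists were chosen with earlier results of these data known. Motifs, sequences and gene positions were not analysed here, for want of a genome of the lists' build. The other samples were not analysed here.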

Additional observations from a re-analysis of the deposited data

How the results depend on the processing

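The number of early regions was 5478, and it was 5246 when 50% of both peaks had to overlap, 4712 when centres had to lie within 100 bases and 4859 when peaks less than 500 bases apart were merged. With only the upper 50% of both stage 8 lists it was 1835. In the same settings the share of stage 8-only Foxh1 regions that carry Tle was 52.6%, 45.9%, 42.6%, 52.8% and 61.9%. The median distance of summit and Tle middle was 42 bases with the nearest pair of peaks and 38 bases where both peaks were in the upper 50% of their lists. With windows of 5 and 50 kb in place of 10 kb, stage 9 Foxh1 lay near 34.3 and 85.3% of the early regions, Foxa near 25.1 and 80.3%, and another early region near 20.4 and 51.4%. By class of Foxh1 score, chosen after the data were examined, the stage 9 share was 44.3% in the lowest, 48.9% in the middle and 46.2% in the highest class, and the share with another early region was 23.5, 27.7 and 31.6%. The Foxa share stayed within its interval in all 3 classes. The cause of these shifts was not tested. The planned motif shares and distances to gene starts were not run. No paired analysis was possible because no test was made and each list stands alone. The depth of the libraries is unknown, and it limits how far a missing peak can be read.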
